A study of Mus musculus with 24 samples.

Results

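The 9 genes described here belong to the contractile apparatus of smooth muscle and myoepithelial cells: Acta2, Tagln, Cnn1, Cnn2, Tpm1, Tpm2, Myh11, Myl9 and Mylk. They were chosen by name, 9 of the 35855 genes with a value in the deposited tables. Levels of these genes in the same 24 libraries were known when the list was drawn up, and the rule sets no threshold and names no single comparison. The p-values below are each gene's own value from a fit over all tested genes and describe these libraries, with no independent support for the choice. Of the 9 genes, 7 passed the filter on low counts, and Cnn1 and Myh11 did not. Several of the 7 are low in 1 group and passed through the others, so a count over the 7 is a description as well.

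RNA was sequenced from sorted pools of 1000 tracheal epithelial cells of female mice labelled wild-type and naive, of the C57BL/6 strain by the series title. The 3 groups were cells labelled BCAM HI (here BCAM high), BCAM LO (BCAM low) and DIFFERENTIATED EPCS (differentiated), with 8 libraries each. BCAM is the basal cell adhesion molecule, a laminin-binding surface protein, and the series title calls the sorted cells basal subsets. Each group held 5 libraries labelled batch 1 (replicates 1 to 5) and 3 labelled batch 2 (replicates 6 to 8). The age of the mice, the sort gates, the number of animals behind a pool and the meaning of the batch label are not stated in the labels. Nothing in the labels says that replicates came from separate animals, so the p-values measure the spread between these libraries, which may be partly technical.

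In contractile cells, myosin heads pull on actin filaments after myosin light chain kinase has phosphorylated the regulatory light chain, and tropomyosins and calponins lie along the filament and tune that pull. Smooth muscle uses its own versions of these parts, whose genes are classic targets of serum response factor (SRF) with its cofactors of the myocardin family. SRF binds a short palindromic element called the CArG box. In the airway, smooth muscle lies under the epithelium, and myoepithelial cells of the submucosal glands combine basal keratins with the smooth muscle proteins. Other cells use non-muscle relatives of the same parts.

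The 9 genes fell into 2 levels. On the deposited TPM scale, which divides by transcript length and so allows genes to be compared, Tpm1 and Cnn2 averaged 183 ± 29.9 and 156 ± 26.2 TPM in BCAM high, 148 ± 39.7 and 111 ± 33.8 TPM in BCAM low, and 101 ± 19.9 and 89.3 ± 17.5 TPM in differentiated (SD, n = 8). In BCAM high the order went on with Tpm2 (24.6 ± 15.5 TPM), Acta2 (15.2 ± 8.82), Myl9 (10.1 ± 7.51), Mylk (7.50 ± 3.59), Tagln (6.51 ± 3.68), Cnn1 (2.79 ± 1.98) and Myh11 (1.04 ± 1.28). Neighbours in this order overlapped in their ranges over libraries, except Cnn2, whose lowest library (122 TPM) lay above the highest of Tpm2 (60.2 TPM). In BCAM low, Tpm2 again came next at 11.6 ± 4.03 TPM, and Myl9, Mylk, Tagln and Acta2 lay between 2.89 and 4.80 TPM with overlapping ranges. In differentiated the gene after Tpm1 and Cnn2 was Mylk, at 18.2 ± 18.6 TPM, and the other 6 averaged between 0.0831 (Cnn1) and 1.49 TPM (Tagln). These TPM values serve to compare genes within a group, since the scale as a whole differs between groups. On log2(TPM + 0.1), the median difference of all genes from differentiated was 0.75 in BCAM high and 0.48 in BCAM low. Values below are in CPM, counts scaled to the library total, unless TPM is named.

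**Figure D1:**
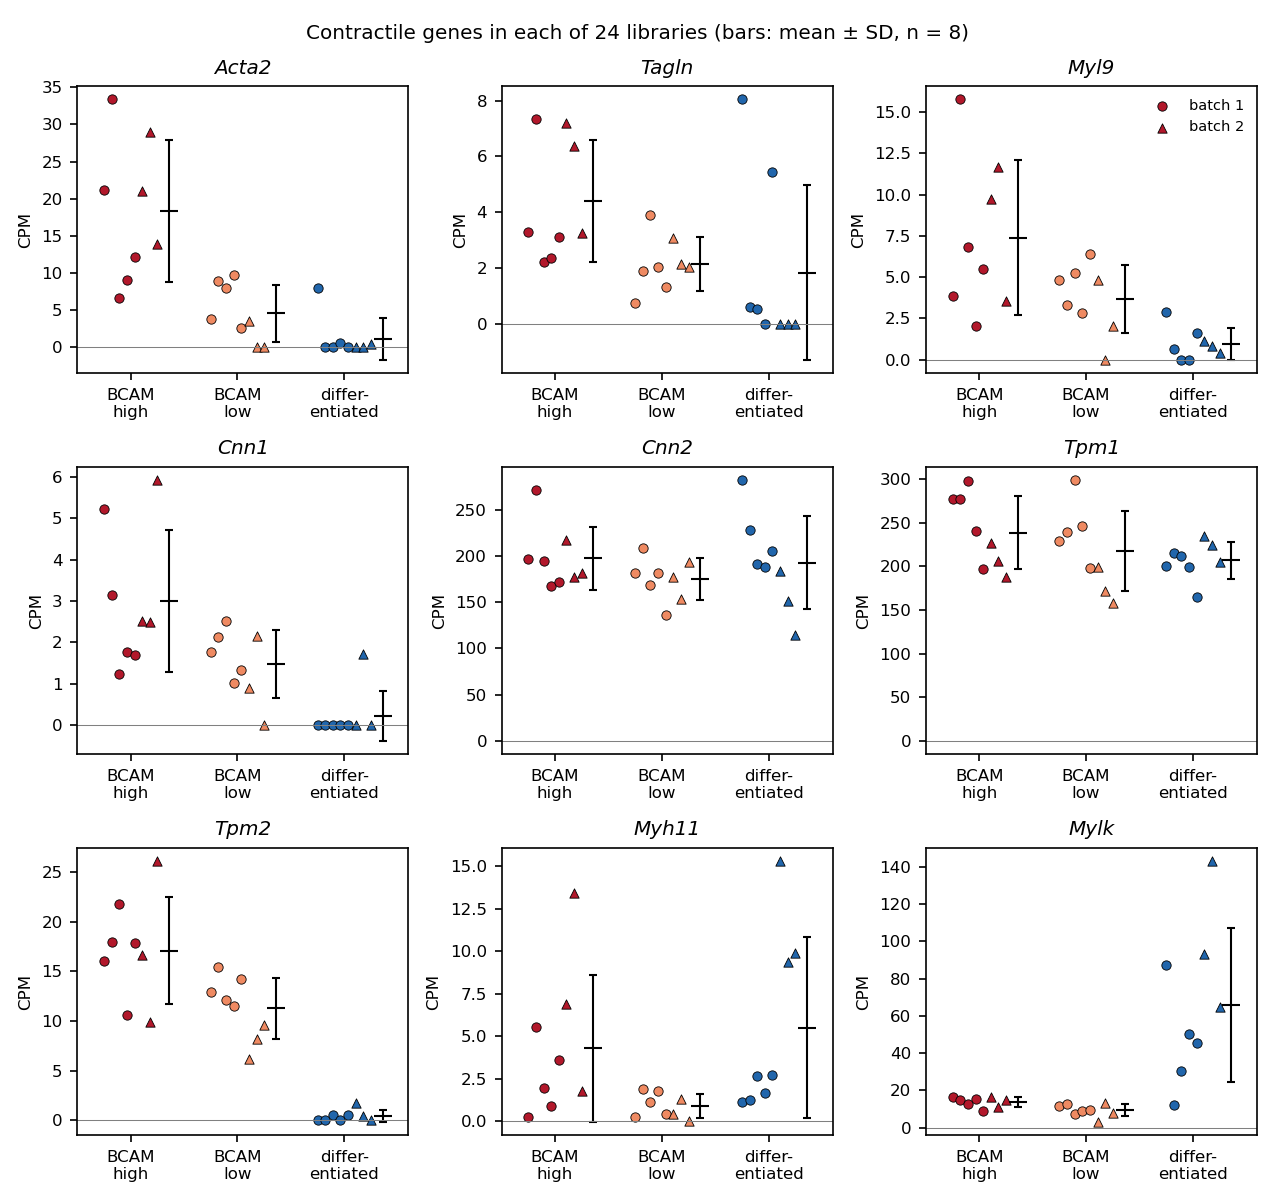
Level of each of the 9 genes in CPM (vertical axis, linear, own scale per panel) in each of 24 libraries, by group; circles are batch 1, triangles batch 2, and black bars the mean ± SD of 8 libraries. Tpm2 lies between 9.90 and 26.1 CPM in BCAM high and at 1.69 CPM or less in differentiated, Mylk reaches 143 CPM in differentiated, and Cnn2 and Tpm1 overlap across all groups.

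Estimated counts totalled 1824619 to 4440072 per library, and the epithelial identity of all groups was visible in Epcam, which averaged 351, 414 and 554 CPM in BCAM high, BCAM low and differentiated. Basal keratin Krt5 averaged 1670, 929 and 0.854 CPM in the same order. Of the basal markers, 1 of 4 rose in BCAM high over BCAM low, while 2 of 5 epithelial, 1 of 4 secretory and 2 of 5 ciliated markers fell, and 4 of 4 basal markers rose over differentiated in both BCAM groups (edgeR QL). Of all genes, 2.43% were higher and 4.59% lower in BCAM high than in BCAM low, and 19.4% and 16.3% were higher than in differentiated in BCAM high and BCAM low. The differentiated group also held transcripts of thyroid and parathyroid. Its summed level of 6 thyroid markers ran from 13800 to 117000 CPM, against at most 1280 CPM in any BCAM library. Its summed level of 4 parathyroid markers ran from 15.6 to 29200 CPM, against at most 15.1 CPM in BCAM high. In BCAM low the highest was 458 CPM, in BCAM low 7, which lies within the differentiated range. Bcam itself averaged 509 ± 133, 376 ± 91.2 and 395 ± 328 CPM (SD, n = 8) and was not called between any groups (edgeR QL adjusted p = 0.462, 0.0952 and 0.607). Here edgeR QL is edgeR's quasi-likelihood test over 12211 genes, with batch as a term, and "called" means a p under 0.05 after Benjamini-Hochberg (BH) adjustment over them.

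Acta2 (ENSMUSG00000035783), which encodes smooth muscle alpha actin, had its highest levels in BCAM high. Its lowest, median and highest libraries were at 6.61, 17.5 and 33.4 CPM in BCAM high (27 to 127 counts), 0, 3.66 and 9.69 CPM in BCAM low (0 to 38 counts) and 0, 0 and 8.06 CPM in differentiated (0 to 14 counts). Of the 16 counts in differentiated, 14 came from differentiated 1, and 5 libraries had none. All pairs of groups overlapped, BCAM high with differentiated only through that library. Acta2 rose in BCAM high over BCAM low by 2.18 on the log2 scale (SE 0.66), higher in 6 of 8 same-numbered comparisons (edgeR QL adjusted p = 0.0469).

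That call was a narrow one. It was lost without the filter, with length offsets, in batch 1 alone and without a batch term (edgeR QL adjusted p up to 0.299). With a term for replicate number it was lost as well (2.10, SE 0.73, edgeR QL adjusted p = 0.0953). Leaving out any of 14 of the 24 libraries also lost it (edgeR QL adjusted p up to 0.105). These were BCAM high 1, 2, 6, 7 or 8, BCAM low 1, 3, 5, 6, 7 or 8, or differentiated 4, 6 or 8. In batch 1 alone the log2 fold change was 1.32 (SE 0.69, edgeR QL adjusted p = 0.299), and in batch 2 alone 4.09 (SE 0.90, edgeR QL adjusted p = 0.0181). The change of the difference between batches did not pass the threshold (2.78, SE 1.31, edgeR QL adjusted p = 0.407). In batch 2, BCAM low had 8, 0 and 0 counts of Acta2, against 47 to 82 in BCAM high.

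Against differentiated, Acta2 rose in BCAM high (log2 fold change 4.22, SE 0.81, 8 of 8, edgeR QL adjusted p = 1.57e-04). In BCAM low the difference was 2.04 (SE 0.83, 5 of 8) and missed the threshold (edgeR QL adjusted p = 0.0616). Differentiated 1 sets the size of both: by summed counts over scaled totals BCAM high was 17.2 times differentiated (exact 95% interval 10.5 to 30.4), and 122 times (33.7 to 1010) without that library. For BCAM low the ratio went from 5.10 (3.04 to 9.17) to 36.2 (9.85 to 302), and the fit without it called the gene (edgeR QL adjusted p = 5.09e-04). Both intervals cover counting error only. Differentiated 1 also had 312 CPM of summed fibroblast markers, with the other differentiated libraries between 0.411 and 320, and the part of these in the result was not tested.

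Acta2 reads are shared in part with its close relatives, so its estimated counts are uncertain. The cytoplasmic actins Actb and Actg1 had means of 2000, 1960 and 2060 CPM (Actb) and 2900, 2500 and 2660 CPM (Actg1) over BCAM high, BCAM low and differentiated, while the striated muscle actin Acta1 had 0, 9 and 6 counts over BCAM high, BCAM low and differentiated. Enteric smooth muscle actin, Actg2, had 26, 38 and 4 counts.

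The 170 bases before the start of Acta2 are shown because CArG boxes are what SRF reads at such genes (RefSeq, GRCm38.p6, chr19:34255374-34255543, minus strand, 5′ to 3′). Capitals mark matches to the box that hold 1 G or C among the inner bases.
Acta2: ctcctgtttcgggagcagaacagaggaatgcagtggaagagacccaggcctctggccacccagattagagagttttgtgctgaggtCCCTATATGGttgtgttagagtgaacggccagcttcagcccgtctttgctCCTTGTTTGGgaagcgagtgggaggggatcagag

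Tagln (ENSMUSG00000032085) encodes transgelin, an actin-binding protein of smooth muscle also called SM22. The lowest, median and highest libraries were at 2.20, 3.28 and 7.36 CPM in BCAM high (8 to 28 counts), 0.758, 2.03 and 3.89 CPM in BCAM low (3 to 17 counts) and 0, 0.264 and 8.06 CPM in differentiated (0 to 14 counts). The 3 groups overlapped, and the highest value of all was in differentiated 1. The test on counts did not call Tagln between groups: the log2 differences were 1.06 (SE 0.63) between BCAM high and BCAM low, 1.37 (SE 0.70) between BCAM high and differentiated and 0.32 (SE 0.71) between BCAM low and differentiated (edgeR QL adjusted p = 0.366, 0.118 and 0.771). Without differentiated 1 the difference of BCAM high from differentiated was 2.25 and passed the threshold (edgeR QL adjusted p = 0.0131). With limma on log2(TPM + 0.1), Tagln was called higher than in differentiated in both BCAM groups: 3.53 in BCAM high (2.78 relative to the median of all genes, limma adjusted p = 2.94e-04) and 2.53 in BCAM low (2.05 relative to it, limma adjusted p = 0.00878).

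Within differentiated, Tagln was uneven between batches. Batch 1 had 26 counts, 24 of them in differentiated 1 and 5, and batch 2 had 0, which makes it at least 6.39-fold lower against a floor of 3 counts over the 3 libraries (edgeR QL adjusted p = 0.00955). The differences of BCAM high and BCAM low from differentiated changed between batches with it (interaction by edgeR QL, adjusted p = 0.0206 and 0.0293). Without BCAM high 1, 2, 6 or 8, Tagln did not pass the filter on low counts, so none of these calls was tested there. Of the 2 interaction calls, the first was lost without differentiated 6 or 7. The second was lost without differentiated 1, 6 or 7 or BCAM low 6. Summed fibroblast markers in differentiated 1 and 5 were 312 and 183 CPM, and differentiated 6 had 320 CPM and 0 counts of Tagln. The part of these markers in the Tagln levels was not tested.

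Cnn1 (ENSMUSG00000001349), calponin 1, is a late marker of differentiated smooth muscle and of myoepithelial cells. It summed to 84 counts in BCAM high (5 to 20 per library), 44 in BCAM low (0 to 11) and 4 in differentiated, all 4 in differentiated 7. The mean levels were 3.0 ± 1.71, 1.47 ± 0.828 and 0.213 ± 0.603 CPM (SD, n = 8). Every BCAM high library had some, and 7 of 8 differentiated libraries had none. Since Cnn1 did not pass the filter, its test comes from a fit without the filter over 30467 genes. There it rose over differentiated by 3.58 in BCAM high (SE 0.89, 8 of 8, edgeR QL adjusted p = 0.00115) and by 2.64 in BCAM low (SE 0.91, 7 of 8, edgeR QL adjusted p = 0.0373), beside 9.21% and 7.21% of all genes called higher in that fit. The difference of BCAM high from BCAM low was 0.94 (SE 0.72, not called, edgeR QL adjusted p = 0.542).

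Cnn2 (ENSMUSG00000004665), the calponin found in many cell types besides muscle, was abundant throughout. The lowest, median and highest libraries were at 168, 188 and 271 CPM in BCAM high, 136, 179 and 209 CPM in BCAM low, and 114, 190 and 282 CPM in differentiated. The groups overlapped over most of their range, and no comparison called it: the differences were 0.17, 0.05 and -0.12, each with an SE of 0.13 (edgeR QL adjusted p = 0.487, 0.802 and 0.491). The sign of the BCAM low difference turned to 0.27 on the log2(TPM + 0.1) scale, and that of the BCAM high difference to -0.03 without BCAM high 2 or differentiated 8. Within differentiated, Cnn2 was lower in batch 2 (log2 fold change -0.55, SE 0.17, edgeR QL adjusted p = 0.0219), with 114 to 184 CPM against 188 to 282 in batch 1 and no overlap. Of all genes, 10.8% lay apart in that direction. The call was lost without differentiated 1, 7 or 8 (edgeR QL adjusted p up to 0.133), with length offsets (-0.48, edgeR QL adjusted p = 0.115) and on log2(TPM + 0.1) (-0.21, limma adjusted p = 0.573).

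A promoter stretch of Cnn2 is shown because it holds a CArG box with only A and T inside, marked by capitals (RefSeq, GRCm38.p6, chr10:79988430-79988599, plus strand).
Cnn2: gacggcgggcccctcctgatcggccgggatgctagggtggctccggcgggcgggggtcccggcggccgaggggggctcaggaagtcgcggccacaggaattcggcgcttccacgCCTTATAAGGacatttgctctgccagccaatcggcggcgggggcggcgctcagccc

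Tpm1 (ENSMUSG00000032366) encodes an alpha tropomyosin whose many splice forms serve both muscle and non-muscle cells. It was the most abundant of the 9 genes, with lowest, median and highest libraries of 188, 234 and 298 CPM in BCAM high, 158, 214 and 299 CPM in BCAM low, and 165, 208 and 235 CPM in differentiated. All groups overlapped and none of the differences was called (0.14, 0.19 and 0.05, each with an SE of 0.11, edgeR QL adjusted p = 0.534, 0.179 and 0.752). In BCAM low, batch 2 was lower than batch 1 (log2 fold change -0.46, SE 0.14, edgeR QL adjusted p = 0.0328), with 158 to 199 CPM against 198 to 299. The call was lost without BCAM low 3, 7 or 8 (edgeR QL adjusted p up to 0.134). The difference of BCAM low from differentiated changed by -0.61 (SE 0.20) from batch 1 to batch 2 (interaction by edgeR QL, adjusted p = 0.0410). That call was lost without any of 11 libraries (edgeR QL adjusted p up to 0.107): BCAM high 1 or 7, BCAM low 3, 4, 7 or 8, or differentiated 1, 4, 5, 6 or 7. The estimated reads of Tpm1 were spread over many of its 21 annotated transcripts. The largest named share went to Tpm1-220, a transcript annotated for nonsense-mediated decay, with shares of 24.6 ± 7.81%, 26.4 ± 10.6% and 31.8 ± 17.0% (SD, n = 8) for BCAM high, BCAM low and differentiated, which differ by less than their spread. The split of short reads among forms is an estimate.

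Tpm2 (ENSMUSG00000028464), the beta tropomyosin of smooth and striated muscle, separated both BCAM groups from differentiated. Its lowest, median and highest libraries were at 9.90, 17.2 and 26.1 CPM in BCAM high (28 to 89 counts), 6.18, 11.8 and 15.4 CPM in BCAM low (14 to 65 counts), and 0, 0.213 and 1.69 CPM in differentiated (0 to 3 counts, 6 in all). No differentiated library reached the lowest BCAM library. Across all tested genes the ranges lay apart in the same direction for 6.10% in BCAM high against differentiated and 3.44% in BCAM low against differentiated. Tpm2 rose over differentiated by 5.30 in BCAM high (SE 0.44, 8 of 8) and by 4.69 in BCAM low (SE 0.45, 8 of 8; edgeR QL adjusted p = 7.64e-11 and 2.57e-09). By summed counts the ratios were 44.6 (exact 95% interval 20.3 to 122) and 30.8 (14.0 to 84.4). Without differentiated 6, which held 3 of the 6 counts, they were 78.9 (26.9 to 384) and 54.5 (18.5 to 265). Between BCAM high and BCAM low the difference of 0.61 (SE 0.28, 7 of 8) was not called (edgeR QL adjusted p = 0.207), and the ranges overlapped. Within BCAM low, Tpm2 was at 6.18 to 9.58 CPM in batch 2 and 11.5 to 15.4 CPM in batch 1. That difference of -0.73 (SE 0.41) was not called (edgeR QL adjusted p = 0.273). Most of the estimated reads went to Tpm2-203, with 80.5 ± 14.8% in BCAM high (n = 8) and 91.1 ± 9.81% in the 5 BCAM low libraries with at least 20 counts (SD).

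Myh11 (ENSMUSG00000018830), the heavy chain of smooth muscle myosin and the most specific smooth muscle marker of the 9, was low everywhere. It summed to 114 counts in BCAM high (1 to 38 per library), 27 in BCAM low (0 to 8) and 90 in differentiated (2 to 27), with mean levels of 4.29 ± 4.34, 0.905 ± 0.719 and 5.49 ± 5.30 CPM (SD, n = 8). In differentiated the 3 libraries of batch 2 had 22 to 27 counts each and the 5 of batch 1 had 2 to 5. In the fit without the filter that rise was 2.57 (SE 0.77, edgeR QL adjusted p = 0.0140), and against differentiated Myh11 was lower in BCAM low (log2 difference -1.88, SE 0.62, 6 of 8, edgeR QL adjusted p = 0.0281). Of all genes in that fit, 4.22% were called higher in batch 2 of differentiated and 6.25% lower in BCAM low than in differentiated. The mean levels of BCAM low and differentiated were 1.10 and 1.88 CPM in batch 1, and 0.576 and 11.5 CPM in batch 2. The change of this difference between batches was not called (-3.46, SE 1.26, edgeR QL adjusted p = 0.0959). Between BCAM high and BCAM low the difference was 1.77 (SE 0.59, 7 of 8, edgeR QL adjusted p = 0.0963), and between BCAM high and differentiated -0.10 (SE 0.56, edgeR QL adjusted p = 1.00).

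Myl9 (ENSMUSG00000067818) encodes the regulatory light chain of smooth muscle myosin, the subunit that the kinase phosphorylates. The lowest, median and highest libraries were at 2.06, 6.19 and 15.8 CPM in BCAM high (7 to 60 counts), 0, 4.06 and 6.43 CPM in BCAM low (0 to 29 counts) and 0, 0.736 and 2.88 CPM in differentiated (0 to 5 counts, 14 in all). The BCAM groups overlapped each other, and each overlapped differentiated at its low end. Myl9 rose over differentiated by 2.96 in BCAM high (SE 0.62, 8 of 8) and by 1.95 in BCAM low (SE 0.63, 7 of 8; edgeR QL adjusted p = 2.68e-04 and 0.0174). The BCAM low call was lost with transcript length offsets (1.82, edgeR QL adjusted p = 0.0773) and in batch 2 alone (1.5, edgeR QL adjusted p = 0.422). The BCAM groups differed by 1.01 (SE 0.51, 5 of 8, not called, edgeR QL adjusted p = 0.261). The form Myl9-201 took 86.4 ± 13.5% of its estimated reads in the 5 BCAM high libraries with at least 20 counts, and 98.8 ± 1.72% in the 2 such libraries of BCAM low (SD). Its non-muscle relative Myl12a, with which it can share reads, averaged 235, 194 and 178 CPM in the same order of groups.

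The stretch before the start of Myl9 is shown because it holds a CArG box with only A and T inside, nearest the left end, and another match with 1 G, both in capitals (RefSeq, GRCm38.p6, chr2:156775294-156775463, plus strand).
Myl9: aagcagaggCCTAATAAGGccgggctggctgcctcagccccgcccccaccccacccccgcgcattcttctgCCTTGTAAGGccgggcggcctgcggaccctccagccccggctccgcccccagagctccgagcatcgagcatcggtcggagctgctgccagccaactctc

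Of the 9 genes, 7 had a promoter entry of 300 bases, from 250 before to 50 after the start. A CArG box, read on both strands since it is palindromic, was found in 2 of the 7 (Myl9 and Cnn2), and in 3 of the 7 when 1 inner G or C was allowed (with Acta2). Of all 32851 promoters in the table, 1.63% held the box and 9.98% held either form. In the printed stretches the matches lie 84 to 75 and 34 to 25 bases before the start in Acta2, 161 to 152 and 99 to 90 in Myl9, and 56 to 47 in Cnn2. A match is a run of letters and was not tested as a binding site.

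Mylk (ENSMUSG00000022836), the kinase that phosphorylates the regulatory light chain, ran the other way from Tpm2. Its lowest, median and highest libraries were at 9.12, 14.8 and 16.3 CPM in BCAM high (31 to 59 counts), 3.09, 9.34 and 13.3 CPM in BCAM low (7 to 53 counts), and 12.4, 57.5 and 143 CPM in differentiated (20 to 335 counts). Only differentiated 2, at 12.4 CPM, lay within the range of the BCAM groups. Mylk fell by 2.19 in BCAM high (SE 0.32, 7 of 8) and by 2.70 in BCAM low (SE 0.33, 7 of 8) against differentiated on the log2 scale (edgeR QL adjusted p = 3.57e-06 and 4.99e-07). On the log2(TPM + 0.1) scale, where the median of all genes was 0.73 higher than in the fit on counts, the BCAM high difference was -0.86, or -1.61 relative to that median, and was not called (limma adjusted p = 0.163). The BCAM groups differed by 0.51 (SE 0.33, not called, edgeR QL adjusted p = 0.403).

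Mylk also differed within differentiated, where batch 2 had 65.0 to 143 CPM and batch 1 had 12.4 to 87.0, a rise of 1.15 (SE 0.37, edgeR QL adjusted p = 0.0311). The call was lost without differentiated 3, 5, 6 or 7, and without 7, the highest library, the difference was 0.81 (edgeR QL adjusted p = 0.227). It was also not called with length offsets (1.51, edgeR QL adjusted p = 0.0852) or on log2(TPM + 0.1) (1.88, limma adjusted p = 0.0754). The summed thyroid markers moved the same way, from 13800 to 25900 CPM in batch 1 and from 49400 to 117000 CPM in batch 2, with differentiated 7 highest. Differentiated 2, lowest for Mylk, had the highest summed parathyroid markers (29200 CPM). Other markers also differed between the batches of differentiated: summed secretory markers ran from 272000 to 396000 CPM in batch 1 and from 10700 to 63200 in batch 2, and summed basal markers from 1920 to 2420 and from 238 to 927. The part of these cells in the Mylk, Myh11, Cnn2 and Tagln levels was not tested. In sorted pools, fewer cells of a type and less RNA per cell cannot be told apart. The long form Mylk-201 took 49.6 ± 12.4% of the gene's estimated reads in BCAM high (n = 8), 50.8 ± 15.8% in BCAM low (n = 6) and 58.4 ± 13.6% in differentiated (n = 8, SD).

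Between BCAM high and BCAM low, 1 of the 7 tested genes was called, Acta2, beside 7.02% of all 12211 tested genes (2.43% called higher in BCAM high). Their median log2 difference was 0.61, and the median over all tested genes was 0.00. Between BCAM high and differentiated, 4 of 7 were called, beside 41.3% of all genes. Acta2, Myl9 and Tpm2 were higher in BCAM high (19.4% of all genes were) and Mylk lower (22.0%). The median of the 7 was 1.37, against 0.02 for all genes. Between BCAM low and differentiated, 3 of 7 were called, beside 33.5% of all genes: Myl9 and Tpm2 higher (16.3%) and Mylk lower (17.1%), with a median of 0.32 against 0.02. Both comparisons with differentiated use the same 8 differentiated libraries. Of the genes called, 34.7%, 46.8% and 48.8% were higher in the first group in these 3 comparisons, and 75.8%, 88.6% and 87.3% were with limma on log2(TPM + 0.1), a scale on which the median of all genes was 0.26, 0.73 and 0.46 higher.

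**Figure D2:**
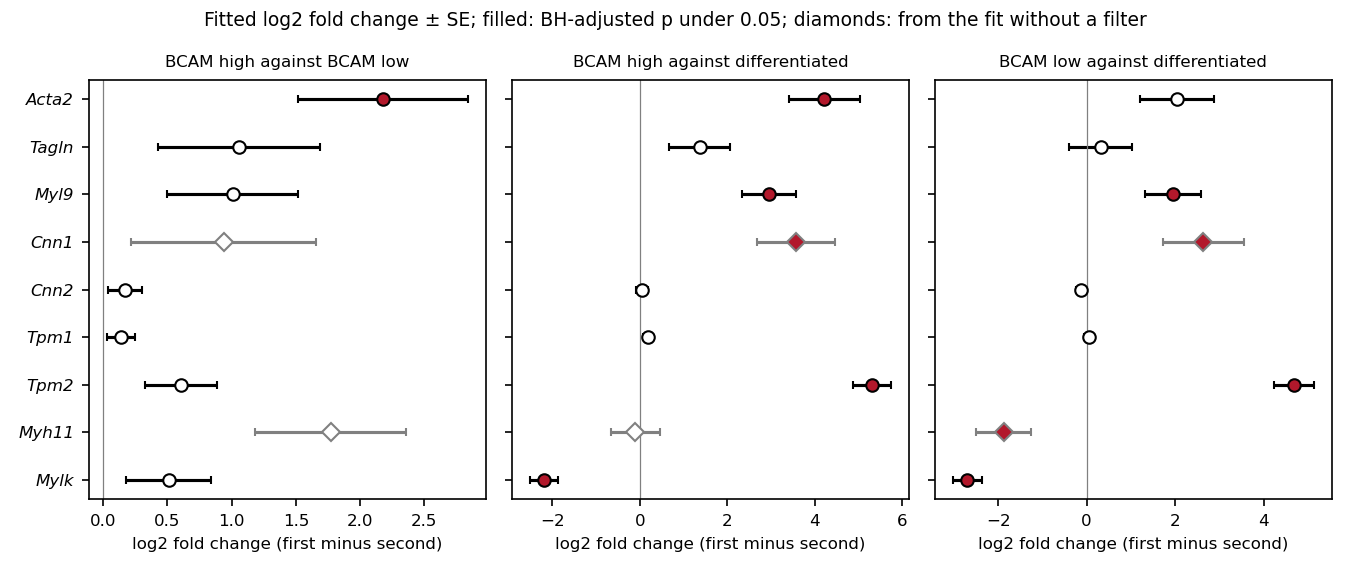
Fitted log2 fold change (horizontal axis, first group minus second) with its SE for the 9 genes in the 3 comparisons; red symbols passed a BH-adjusted p under 0.05 and diamonds are Cnn1 and Myh11 from the fit without a filter. Acta2 alone is filled between BCAM high and BCAM low, and Tpm2 and Mylk lie on opposite sides of 0 against differentiated.

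Within groups, batch 2 against batch 1 called 0 of the 7 in BCAM high (8.04% of all genes), 1 of 7 in BCAM low (Tpm1, beside 11.1%, and 4.66% lower) and 3 of 7 in differentiated (Mylk higher, beside 9.98%, and Cnn2 and Tagln lower, beside 10.2%, with 20.1% in either direction; edgeR QL). For BCAM high, 1 gene had an unadjusted p under 0.05 in edgeR QL, and DESeq2 and limma called 0. The change of a group difference between batches was called for 0 of 7 between BCAM high and BCAM low (1.06% of all genes; 1 at an unadjusted p under 0.05, edgeR QL, and 0 by DESeq2 and limma). It was called for 1 of 7 between BCAM high and differentiated (Tagln, beside 8.69%) and for 2 of 7 between BCAM low and differentiated (Tagln and Tpm1, beside 11.4%, with 4.55% in the direction of Tpm1).

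The other genes of smooth muscle gave a mixed picture. Of 14 further smooth muscle genes, 6 passed the filter, and 2 of these rose in BCAM high over BCAM low, with a list median of 0.42 (2.43% of all genes rose). Csrp1, a LIM protein of smooth muscle and other cells, averaged 127 ± 19.2, 68.6 ± 17.4 and 107 ± 58.0 CPM (SD, n = 8) in BCAM high, BCAM low and differentiated (log2 fold change 0.87 for the first pair, SE 0.23, edgeR QL adjusted p = 0.0231). Against differentiated, 2 of 6 rose in BCAM high, among them the actin-binding caldesmon gene Cald1 (0.93, SE 0.27, 25.9 ± 12.7 against 13.2 ± 9.20 CPM, edgeR QL adjusted p = 0.00676), and in BCAM low 1 of 6 fell (19.4% of all genes rose and 17.1% fell in these comparisons). The genes closest to mature smooth muscle had few counts. Des summed to 76, 51 and 5 counts in BCAM high, BCAM low and differentiated, Lmod1 to 50, 25 and 12, Pln to 15, 12 and 2, and Casq2 to 11, 8 and 2.

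Genes that mark myoepithelial cells beside the contractile proteins are mostly basal genes as well, and 3 of the 10 listed here (Krt5, Trp63 and Ngfr) are also on the list of basal markers. Of 7 tested, 2 rose in BCAM high over BCAM low: Krt14 (142 ± 79.2 against 34.8 ± 11.6 CPM, log2 fold change 1.98, SE 0.31, edgeR QL adjusted p = 3.44e-04) and Krt5 (1670 ± 295 against 929 ± 137 CPM, 0.84, SE 0.24, edgeR QL adjusted p = 0.0344). The list median was 0.76, and 2.43% of all genes rose in this comparison. Against differentiated, 6 of 7 rose and 1 fell in each BCAM group (beside 41.3% and 33.5% of all genes called), with medians of 5.91 and 5.23. Among those that rose, Krt17 was at 690 ± 153, 404 ± 147 and 1.23 ± 1.21 CPM in BCAM high, BCAM low and differentiated. The 1 that fell was Sox9, a regulator of gland progenitors and other cells, at 6.61 ± 3.86, 3.64 ± 2.94 and 81.6 ± 46.5 CPM in BCAM high, BCAM low and differentiated (log2 fold changes -3.60 and -4.11 against differentiated). Other members had few counts: Sox10 summed to 8, 9 and 13 counts, Lef1 to 38, 23 and 6, and the oxytocin receptor gene Oxtr to 6, 34 and 8, with 27 of the 34 in 1 library.

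The non-muscle relatives of the same parts had list medians near 0. Of 19 cytoplasmic actomyosin genes tested (18 symbols, with Myl12b naming 2 genes), 1 rose and 2 fell in BCAM high against BCAM low. Of all genes, 2.43% rose and 4.59% fell there. Myh9 rose (0.45, SE 0.14, edgeR QL adjusted p = 0.0450), and Zyx (-0.64, SE 0.17) and the epithelial myosin Myh14 (-0.60, SE 0.13) were lower (edgeR QL adjusted p = 0.0180 and 0.00438). Against differentiated, 3 rose and 5 fell in BCAM high (8 of 19, beside 41.3% of all genes called), and 1 rose and 3 fell in BCAM low (4 of 19, beside 33.5%). The list medians were 0.00, 0.04 and 0.00. The third calponin, Cnn3, was at 33.1 ± 6.32, 24.5 ± 10.3 and 88.9 ± 38.3 CPM, and transgelin 2, Tagln2, at 235 ± 64.3, 281 ± 55.8 and 466 ± 108 CPM. Cnn3 fell by 1.33 and 1.80 against differentiated in BCAM high and BCAM low (edgeR QL adjusted p = 4.15e-06 and 7.10e-08), and Tagln2 fell by 1.00 and 0.73 (edgeR QL adjusted p = 2.40e-08 and 7.13e-06).

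Besides Mylk, 14 genes were tested from a list that holds regulators of the light chain and the LIM kinases, which act on cofilin. Of these 14, 1 rose and 2 fell in BCAM high against BCAM low (beside 2.43% and 4.59% of all genes), with a median of -0.23. The LIM kinase gene Limk2 rose by 0.46 (SE 0.14), and Calm3 (-0.72, SE 0.17) and Rock1 (-0.51, SE 0.14) were lower (edgeR QL adjusted p = 0.0485, 0.00741 and 0.0234). Against differentiated, 1 rose and 5 fell in BCAM high (6 of 14, beside 41.3% of all genes), and 2 rose and 4 fell in BCAM low (6 of 14, beside 33.5%). Limk2 averaged 421 ± 25.5, 304 ± 43.0 and 133 ± 41.5 CPM, and rose over differentiated by 1.68 and 1.22 (edgeR QL adjusted p = 3.34e-10 and 2.28e-07). Calm3, 1 of the calmodulin genes whose product switches on the kinase, averaged 17.5, 28.8 and 43.5 CPM and was lower than in differentiated in both BCAM groups (log2 fold changes -1.34 and -0.62, edgeR QL adjusted p = 2.11e-07 and 0.00435).

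Among SRF and its partners, the comparison of the BCAM groups called 0 of 11 tested genes, beside 7.02% of all genes (1 at an unadjusted p under 0.05 in edgeR QL, 0 by DESeq2 and limma). Srf averaged 10.5 ± 2.31, 10.1 ± 6.67 and 11.5 ± 4.54 CPM in BCAM high, BCAM low and differentiated and was not called in any comparison (edgeR QL adjusted p = 0.948, 0.701 and 0.622). Mrtfb, a myocardin-related cofactor, averaged 119 ± 35.8, 106 ± 22.9 and 69.2 ± 12.1 CPM and rose over differentiated by 0.75 and 0.61 (SE 0.12 each, edgeR QL adjusted p = 5.53e-06 and 1.58e-04). Mrtfa rose over differentiated in BCAM high by 0.53 (SE 0.21, edgeR QL adjusted p = 0.0418), while in BCAM low the difference was 0.23 (edgeR QL adjusted p = 0.435). Myocardin itself, Myocd, had 18, 5 and 3 counts over the groups and was not tested. In all, 6 rose and 2 fell in BCAM high against differentiated (beside 41.3% of all genes called), and 4 rose and 2 fell in BCAM low (beside 33.5%). Tead1 rose by 1.16 and 1.02, and the LIM protein gene Fhl1 was lower (-3.06 and -2.43, edgeR QL adjusted p = 3.74e-07 and 1.05e-05).

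**Figure D3:**
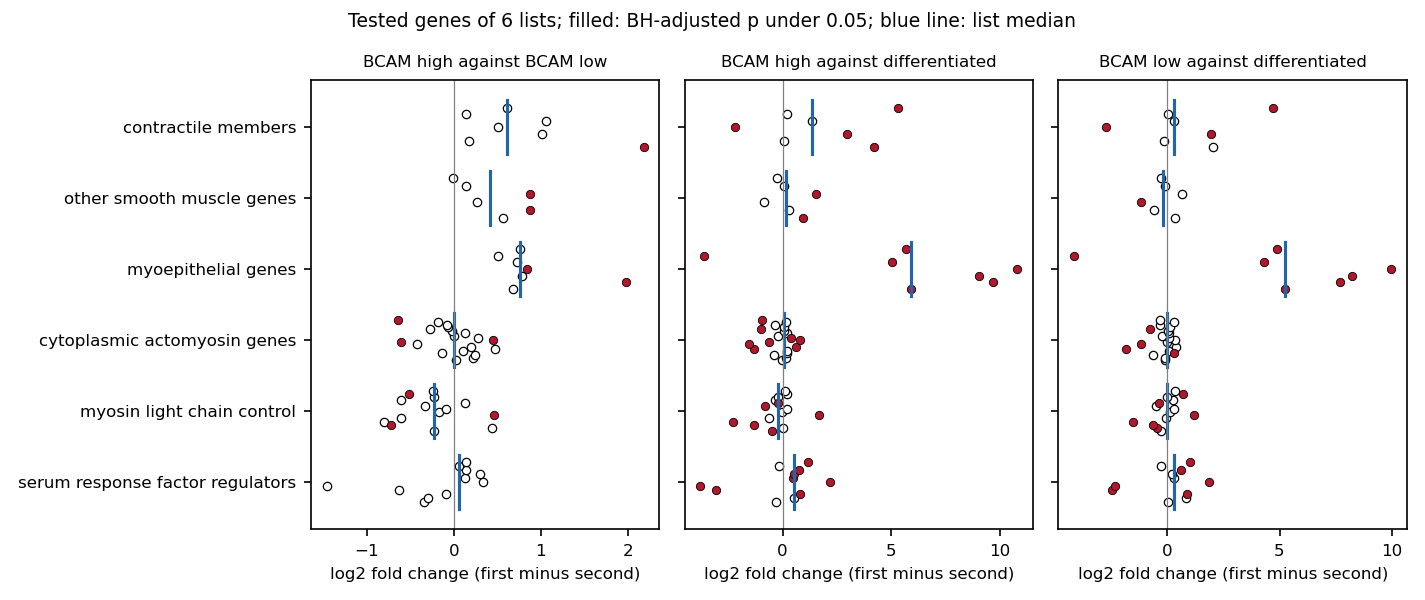
Fitted log2 fold change (horizontal axis, first group minus second) of every tested gene of 6 lists in the 3 comparisons; each point is a gene, red where called, and the blue line is the list's median. The 7 contractile genes spread from -2.70 to 5.30 against differentiated, while the medians of the cytoplasmic actomyosin list stay between 0.00 and 0.04.

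Markers of other cells that carry contractile genes were present at different levels. All 8 pericyte markers were detected in both BCAM groups, with summed levels of 9.92 to 15.0 CPM for BCAM high, 15.0 to 24.7 for BCAM low and 17.3 to 31.7 for differentiated. Rgs5 and Higd1b had 0 counts in differentiated. The only tested member, Notch3, which epithelial cells also express, was lower in BCAM high than in BCAM low (log2 fold change -1.62, edgeR QL adjusted p = 0.0018). Summed endothelial markers ran from 13.7 to 50.8, 12.1 to 54.7 and 4.03 to 43.1 CPM, with all 6 detected in each group. The 9 striated muscle markers summed to 0.941 to 8.14, 0.504 to 10.1 and 0 to 15.4 CPM, with Acta1 and Myh2 at 0 in BCAM high. Summed fibroblast markers, all 7 detected, ran from 173 to 672 CPM in BCAM high and from 69.3 to 382 in BCAM low. Most of that was Dcn (381 ± 186 CPM in BCAM high), and Col3a1 averaged 1.79 CPM. The medians of that sum were 424, 264 and 40.6 CPM in BCAM high, BCAM low and differentiated. The medians of Acta2, Tagln, Myl9, Tpm2, Cnn1 and Tpm1 had the same order over groups. Those of Cnn2, Myh11 and Mylk did not. Of the 4 tested fibroblast markers, Dcn alone rose in BCAM high over differentiated (19.4% of all genes rose). The other 3 fell, among them Col3a1 (-4.68) and Col1a2 (-3.00), beside 22.0% of all genes. The list medians were -3.41 in that comparison, -1.17 for BCAM low against differentiated and -2.23 between the BCAM groups. Within BCAM high, BCAM high 2 was highest for Acta2, Tagln, Myl9 and Cnn2 and had the highest fibroblast sum, 672 CPM. By batch, however, that sum ran from 397 to 672 CPM in batch 1 and from 173 to 224 in batch 2. In the same order, mean levels were 16.5 and 21.3 CPM for Acta2 and 3.67 and 5.61 for Tagln. They were 6.81 and 8.32 CPM for Myl9, and 200 and 192 for Cnn2. BCAM low 8 had a fibroblast sum of 307 CPM and 0 counts of Acta2. Of the fibroblast markers, 0 of 4 tested were called between the BCAM groups by edgeR QL (3 at an unadjusted p under 0.05), beside 7.02% of all genes. DESeq2 called 1 and limma 0. The part of these markers in the contractile levels was not tested.

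**Figure D4:**
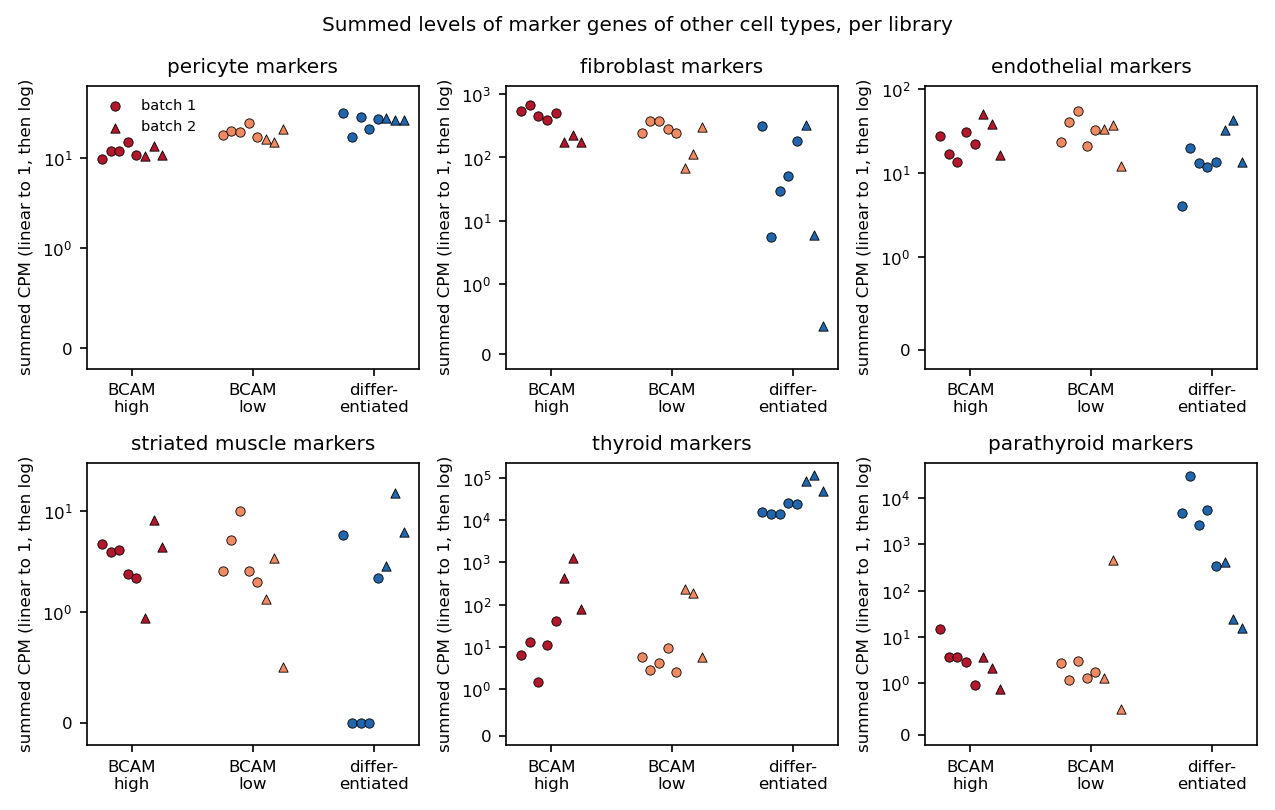
Summed CPM of marker genes of 6 other cell types in each library (vertical axis linear up to 1 and logarithmic above); circles are batch 1 and triangles batch 2. Thyroid markers reach 117000 CPM in differentiated and are higher in its batch 2 than in its batch 1, and pericyte markers stay at or below 31.7 CPM in all libraries.

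The genes whose log2 CPM went most nearly with each contractile gene over the 24 libraries, among 10657 genes, differed from gene to gene. For Tpm2 they were Ifi202b and the basal keratin gene Krt17 (Pearson r = 0.974 and 0.971), and for Mylk they were Papss2 and H6pd (0.920 and 0.909). For Acta2 they were Rpl24 and Eef1b2 (0.876 and 0.845), for Myl9 Ehd2 and Robo2 (0.816 and 0.808), for Tagln Cdo1 and Fam198b (0.798 and 0.786), for Tpm1 Klf6 and Ftsj3 (0.792 and 0.761), and for Cnn2 Capzb and Aamp (0.768 and 0.746). The libraries fall into 3 groups and share depth and batch, so these values describe shared patterns and carry no test. None of these 14 genes was on any of the lists above except Krt17.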

How the data were processed

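All 24 libraries were used, 8 per group, made with SmartSeq2 for cell populations per the labels' protocols. Per the file headers, each deposited table gives, for every transcript, estimated counts and TPM as kallisto writes them, and TPM is scaled by length to the same sum in each library. The submitters' processing notes name kallisto (version given as 46.1), Picard and the build GRCm39; the transcript index is not named there. The 117497 transcripts were matched by identifier to GENCODE M21, whose build is GRCm38, so the only coordinates printed are those of the RefSeq promoter table. 1123 of them, with 0.317% to 0.594% of a library's counts, did not match and were left out. Estimated counts as deposited were summed per gene and rounded.

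Levels in CPM used TMM factors. Tests used edgeR 4.0.16 (R 4.3.3, quasi-likelihood, robust) over 12211 genes kept by its default filter, in 1 fit with group means and batch, and another with a mean per group and batch. Of 30467 genes with a count, the fit without the filter gave Cnn1 and Myh11. Counts such as 7 of 8 give the same-numbered libraries that differ in the stated direction; the numbers were not used as pairs. A gene with 3 counts or fewer in a group or batch has no fitted fold change; ratios of summed counts have exact 95% intervals. DESeq2 1.42.0 and limma 3.58.1 on log2(TPM + 0.1) and log2(TPM + 1) were alternatives, beside other size factors, length offsets, each batch alone, only the groups compared, no batch term, a replicate block and leaving out each library. The fit was tested on simulated data. Intervals and floors reflect counting error alone, because amplified reads carry no molecular identifiers. Leaving out differentiated 1 or 6 from summed ratios was added after the data had been seen. Each was the highest library of the lower group, so leaving it out could only raise the ratio.

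The 9 genes and the 17 other lists were chosen with earlier results of these data known. Named besides the 9 were up to 3 called genes per list and comparison, with at least 10 CPM on average and the largest change; Srf, Mrtfa, Mrtfb, Myocd and Bcam; and the 2 genes most correlated with each tested member. Genes given by counts only, and relatives that share reads, were picked after their values were seen.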

Additional observations from a re-analysis of the deposited data

Results flagged for a closer look

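In 27 groups of 8 libraries (9 genes in 3 groups), 3 had 1 library far above the rest, each in differentiated: Acta2 in differentiated 1 (8.06 CPM, the next at 0.555), Cnn1 in differentiated 7 (1.71 CPM, 4 counts, with 0 in the other 7) and Tpm2 in differentiated 6 (1.69 CPM, 3 counts, the next at 0.546). The rule marks about 1 in 20 groups by chance where values are spread normally. These 3 groups hold few counts and several libraries at 0, so that rate does not apply to them.

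The group differences of 2 genes changed between batches. For Tagln, with 0 counts in batch 2 of differentiated, the differences of BCAM high and of BCAM low from differentiated did so (interaction by edgeR QL, adjusted p = 0.0206 and 0.0293). For Tpm1 the difference of BCAM low from differentiated changed by -0.61 (edgeR QL adjusted p = 0.0410).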

How the results depend on the processing

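Of 246 values under other settings, 209 kept their direction and side of the threshold, 15 lost a call, 15 gained one and 7 reversed; of 588 with 1 library left out, the numbers were 546, 35, 4 and 3. Tagln, Myl9, Cnn1, Myh11 and Acta2 rest on few counts. The Tagln batch calls, which have no fitted fold change, are not among these values. Causes were not tested.

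In BCAM high against BCAM low the 1 called gene became 0 without a filter, with length offsets, in batch 1 alone, without a batch term and with the replicate block. It became 2 in batch 2 alone and 3 with log2(TPM + 1). Between BCAM low and differentiated, 3 became 5 without a filter, where the added calls were Cnn1 and Myh11, which the main fit did not test. With either TPM scale, 3 became 6. Batch calls became 2 in BCAM low with either TPM scale, and 1 in differentiated with length offsets and log2(TPM + 0.1). With log2(TPM + 1), batch changes of the difference from differentiated became 0 for BCAM high and 1 for BCAM low.

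Leaving out each library gave 0 to 2 called between BCAM high and BCAM low, 4 to 5 between BCAM high and differentiated, and 3 to 5 between BCAM low and differentiated. Calls between batches stayed at 0 for BCAM high and ran over 0 to 2 for BCAM low and 1 to 4 for differentiated. Calls for a change between batches stayed at 0 for the BCAM groups and ran over 0 to 1 and 0 to 2 for their differences from differentiated.

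Against differentiated, the sign reversed for Cnn2 in BCAM high (-0.12 in batch 1 alone, -0.03 without BCAM high 2 and -0.03 without differentiated 8, up to 0.14) and in BCAM low (0.27 and 0.27 on the TPM scales, 0.22 in batch 2 alone), for Tpm1 in BCAM high (-0.10 in batch 2 alone) and BCAM low (-0.33 in batch 2 alone, -0.01 to 0.10 with a library left out), and for Tagln in BCAM low (-0.56 in batch 1 alone). On log2(TPM + 0.1), limma called Cnn2 and Tpm1 higher in BCAM high than differentiated (0.81 and 0.86), or 0.05 and 0.11 relative to the median of all genes.

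By TPM, Mylk-201 took 17.4%, 17.3% and 23.8% of Mylk in BCAM high, BCAM low and differentiated, and Myl9-201 took 96.1% of Myl9 in BCAM low. By estimated counts, Mylk-201 took 71.6% in BCAM low with a minimum of 50 counts, which only BCAM low 2 reached (53 counts).

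The replicate block left 0 of the 7 genes called between BCAM high and BCAM low (Acta2 2.10, edgeR QL adjusted p = 0.0953), with 864 of all genes called against 857. Of 24 same-numbered pairs, 7 deviated together with a correlation over 0.1 (range 0.0315 to 0.176), all were above 0, and 19 of 24 libraries correlated best with their own number. The same-numbered libraries thus look paired in these data, which the labels do not state. The main fit leaves this out, so its p-values do not take it into account. Not every pair passed 0.1, the rule set for using pairs, so the block was kept as an alternative.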
